A study of Arabidopsis thaliana with 8 samples.

Results

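The myrosinase system, the plant defence chemistry that breaks down glucosinolates, was followed through 10 genes in whole *Arabidopsis thaliana* seedlings. These 10 of the 33602 genes in the count tables were chosen by locus identifier: the myrosinases *TGG1* (AT5G26000) and *TGG2* (AT5G25980), the β-glucosidase *PYK10* (AT3G09260), the myrosinase-binding proteins *MBP1* (AT1G52040) and *MBP2* (AT1G52030), the specifier proteins *ESP* (AT1G54040), *NSP1* (AT3G16400) and *NSP5* (AT5G48180), and the GDSL lipase-like genes *ESM1* (AT3G14210) and *GLL23* (AT1G54010). No threshold on expression was applied, but the list was put together with earlier results of these data known. Their differences are therefore a description of 10 chosen genes, and the tests, which were run over all genes, are not independent evidence about the list.

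Seedlings were 6 days old and grown in short days. Wild type Col-0 and *pwr-2*, a single T-DNA insertion allele of *POWERDRESS* (*PWR*) in the Col-0 background, were either left at 23°C or moved to 27°C for 2 h. RNA from whole seedlings was sequenced in 2 biological replicates of each of the 4 groups, 8 libraries in all, with total counts of 7379650 to 15733741. Chloroplast and mitochondrial genes took 0.0374% to 6.77% of the counts and the 10 genes together 0.401% to 0.492%. Replicate 1 of Col-0 at 23°C had both the fewest counts and the largest organelle share, with replicate 1 of *pwr-2* at 23°C next in that share at 6.49%. *PWR* (AT3G52250) itself, which encodes a SANT-domain protein that works with a histone deacetylase, was at 43.0 to 82.0 CPM (counts scaled to 1000000 per library, on library sizes normalized by the TMM method) in the 4 Col-0 libraries and 11.4 to 20.2 CPM in the 4 *pwr-2* libraries, so the mutant libraries match their labels and retain some *PWR* reads.

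Glucosinolates are sulphur-rich thioglucosides of the Brassicales, stored apart from the enzymes that cleave them. When tissue is damaged, myrosinases remove the glucose and the unstable product rearranges, by default into an isothiocyanate, which is toxic to many insects and microbes. Specifier proteins divert that product to nitriles or epithionitriles. ESM1 is known to act in the other direction, favouring isothiocyanates over nitriles. TGG1 is the abundant myrosinase of guard cells and, with TGG2, of phloem idioblasts. PYK10 is the main β-glucosidase of endoplasmic reticulum (ER) bodies in seedlings and roots, can cleave indole glucosinolates, and forms complexes with jacalin-related lectins and GDSL lipase-like proteins such as GLL23. MBP1 and MBP2 are jacalin-related lectins related to proteins that copurify with myrosinase in *Brassica*.

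Several members are close relatives or neighbours. Coordinates are those of the RefSeq annotation of TAIR10.1, and the deposited counts were made on TAIR10. *TGG1* (chr5:9079452-9082384, minus strand) and *TGG2* (chr5:9072708-9075777, plus strand) lie 3674 bases apart with 2 genes between them. Their annotated exons, merged into 1 sequence per gene, are 82.4% identical over the aligned part, with gaps left out. *MBP1* (chr1:19350314-19352791) and *MBP2* (chr1:19345871-19349088), both on the minus strand, are next to each other, 1225 bases apart, and 86.0% identical. *ESP* (chr1:20170715-20173949) and *GLL23* (chr1:20158589-20160864), also on the minus strand, are 9850 bases apart with 3 genes between them. The remaining members lie apart from the other members: *NSP1* (chr3:5566083-5568545, plus strand), *NSP5* (chr5:19540937-19542760, minus strand), *ESM1* (chr3:4729399-4731847, plus strand) and *PYK10* (chr3:2840477-2843781, minus strand).

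For 8 of the 10 genes, no stretch of 90 bases, the read length, within a single exon recurred elsewhere in the genome. Reads of *TGG1* and *TGG2*, or of *MBP1* and *MBP2*, that fell within an exon could thus be told apart despite their similarity. Reads across exon junctions, and exons shorter than 90 bases, were not checked. For *NSP1*, 21.9% of such stretches also occurred in its neighbour *NSP4* (AT3G16410), and for *ESM1* 25.5% also occurred between annotated genes. How reads with several matches were counted is not given in the sources used here, so the levels of *NSP1* and *ESM1* are uncertain to that extent. *PYK10* overlaps AT3G09250 on the opposite strand, and without a stated strand setting reads from the overlap cannot be told apart.

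The 250 bases before the annotated start of the genes whose levels varied most between groups, *MBP1*, its neighbour *MBP2*, *ESP* and *ESM1*, are shown first, 5′ to 3′ on the strand of the gene (chr1:19352792-19353041, chr1:19349089-19349338, chr1:20173950-20174199 and chr3:4729149-4729398). Capitals mark CACGTG (the G-box), TTGAC (the core of the W-box) and TATAAA (the TATA box) on either strand, and adjacent matches can overlap.
MBP1: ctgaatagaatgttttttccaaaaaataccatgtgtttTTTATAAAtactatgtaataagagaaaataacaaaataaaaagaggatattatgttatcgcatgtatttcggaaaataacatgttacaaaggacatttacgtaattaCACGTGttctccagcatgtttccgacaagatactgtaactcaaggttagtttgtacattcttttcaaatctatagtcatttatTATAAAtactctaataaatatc
MBP2: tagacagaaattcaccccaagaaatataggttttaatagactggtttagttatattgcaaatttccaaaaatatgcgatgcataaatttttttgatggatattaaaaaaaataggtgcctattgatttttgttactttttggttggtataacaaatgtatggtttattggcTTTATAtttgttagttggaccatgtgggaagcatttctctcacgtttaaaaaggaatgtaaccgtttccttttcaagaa
ESP: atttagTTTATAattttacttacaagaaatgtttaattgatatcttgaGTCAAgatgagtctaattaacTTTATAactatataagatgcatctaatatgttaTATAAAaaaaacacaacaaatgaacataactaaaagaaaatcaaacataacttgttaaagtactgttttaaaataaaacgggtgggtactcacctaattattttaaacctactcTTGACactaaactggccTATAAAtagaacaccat
ESM1: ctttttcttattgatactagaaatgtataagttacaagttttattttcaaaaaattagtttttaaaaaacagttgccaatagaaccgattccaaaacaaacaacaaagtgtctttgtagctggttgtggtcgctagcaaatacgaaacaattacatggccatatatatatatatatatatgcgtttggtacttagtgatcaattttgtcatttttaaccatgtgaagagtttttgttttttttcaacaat

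*MBP1* was the only member with CACGTG in this window, in 1 copy that begins 105 bases before the gene start. Of 27443 promoters of the same length, 6.49% hold that motif. TTGAC occurred in 2 copies in *ESP* and was absent from the windows of *MBP1*, *MBP2* and *ESM1*, against 44.9% of all promoters with at least 1 copy. TATAAA is in 47.3% of all promoters. *ESM1* had none of the 3 motifs. The looser pattern CANNTG, which CACGTG also fits and which is not capitalised, was in all 4 windows and in 55.3% of all promoters. These are letter matches in a window of fixed length and carry no information on binding.

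The myrosinase pair is shown because the genes are neighbours with unlike levels (*TGG1*, chr5:9082385-9082634; *TGG2*, chr5:9072458-9072707; same capitals).
TGG1: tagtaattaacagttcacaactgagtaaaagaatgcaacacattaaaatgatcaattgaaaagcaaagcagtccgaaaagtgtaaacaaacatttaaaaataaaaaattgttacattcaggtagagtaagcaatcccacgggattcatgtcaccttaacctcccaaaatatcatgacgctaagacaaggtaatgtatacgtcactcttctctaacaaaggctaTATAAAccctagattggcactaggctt
TGG2: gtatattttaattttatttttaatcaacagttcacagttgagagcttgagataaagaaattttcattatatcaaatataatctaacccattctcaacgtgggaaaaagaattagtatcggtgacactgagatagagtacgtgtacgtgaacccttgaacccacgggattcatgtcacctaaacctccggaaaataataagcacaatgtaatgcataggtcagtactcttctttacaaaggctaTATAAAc

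Both windows hold 1 TATAAA, beginning 27 bases before the start of *TGG1* and 7 bases before that of *TGG2*, and neither holds CACGTG or TTGAC. Their longest shared run is 21 bases, cccacgggattcatgtcacct, which begins 116 bases before the start of *TGG1* and 92 bases before that of *TGG2*. The corresponding longest run shared by *MBP1* and *MBP2* is 10 bases.

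Compared per kilobase of gene length, so that genes can be set against each other, *PYK10* was the most highly expressed member, with a mean level of 1357 CPM per kilobase over the 8 libraries (978 to 1846), rank 56 among all genes. *TGG1* followed with a mean level of 572 CPM per kilobase (493 to 725), rank 147. The ranges of these 2 genes did not overlap each other or those of the other 8. From there down neighbours overlapped: *ESM1* had a mean level of 186 CPM per kilobase, *NSP1* 140, *NSP5* 95.3, *TGG2* 51.2, *ESP* 21.9, *MBP1* 4.96 and *MBP2* 1.21. *GLL23*, between *NSP1* and *NSP5*, ranged from 28.7 to 184 CPM per kilobase. The order of the means therefore hides very unequal spreads. Between its highest and its lowest library *TGG1* varied 1.47-fold, *PYK10* and *NSP5* 1.89-fold and *NSP1* 2.51-fold. The spans were 6.41-fold for *GLL23*, 12.1-fold for *TGG2*, 38.7-fold for *MBP2*, 105-fold for *MBP1* and 286-fold for *ESP*, and *ESM1* ran from 17.7 to 426 CPM per kilobase.

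**Figure D1:**
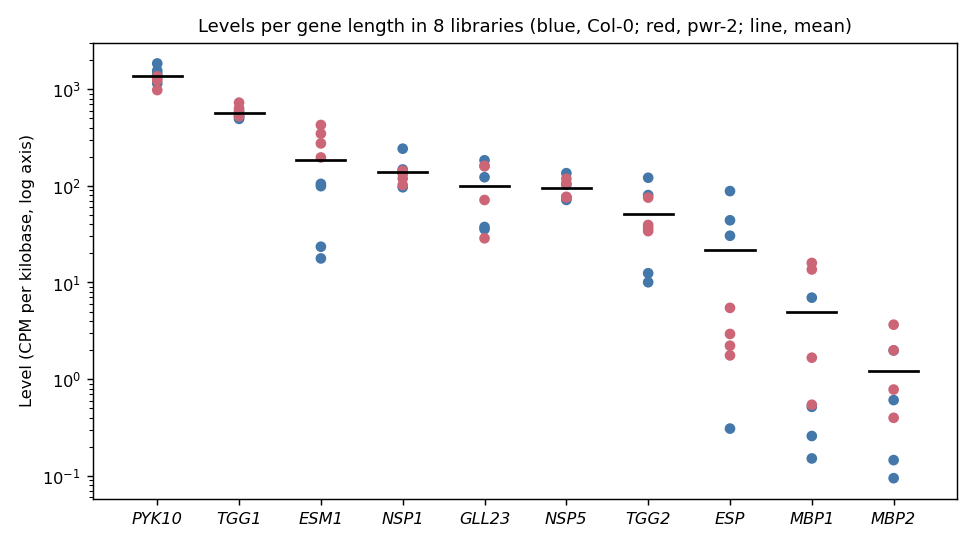
Level of the 10 genes in CPM per kilobase of gene length (vertical axis, logarithmic), 1 point per library, Col-0 in blue and *pwr-2* in red, with a line at the mean of the 8 libraries. *PYK10* and *TGG1* stand above the rest in tight groups. *ESP*, *MBP1*, *MBP2*, *ESM1* and *TGG2* spread over more than a factor of 10, from 0.308 to 88.2 CPM per kilobase for *ESP*.

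The main myrosinase varied least of the members. *TGG1* was at 907 and 945 CPM in the 2 replicates of Col-0 kept at 23°C, 1093 and 970 CPM in Col-0 at 27°C, 965 and 1335 CPM in *pwr-2* at 23°C and 1045 and 1166 CPM in *pwr-2* at 27°C. The genotypes overlapped, as did the temperatures. Its difference between *pwr-2* and Col-0 was 0.28 on the log2 scale (standard error 0.513) at 23°C and 0.09 (0.315) at 27°C, while 27°C minus 23°C gave 0.14 (0.378) for Col-0 and -0.04 (0.139) for *pwr-2* (edgeR, lowest adjusted p of the 4 0.905).

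*TGG2*, the phloem myrosinase, separated the replicates instead of the groups. It was at 149 and 23.2 CPM in the 2 replicates of Col-0 kept at 23°C, 226 and 18.7 CPM in Col-0 at 27°C, 73.4 and 63.4 CPM in *pwr-2* at 23°C and 141 and 68.5 CPM in *pwr-2* at 27°C. Replicate 1 was above replicate 2 in all 4 groups, and both extremes of the gene were in Col-0 at 27°C. The pairs disagreed between genotypes: at 23°C *pwr-2* minus Col-0 was -1.02 in replicate 1 and 1.44 in replicate 2 on the log2 scale, and at 27°C -0.68 and 1.86. No comparison of *TGG2* passed the threshold (edgeR, lowest adjusted p 0.323, *pwr-2* at 27°C against 23°C). Per length, *TGG1* exceeded *TGG2* in every library, by 4.90-fold to 52.5-fold.

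*PYK10*, the ER body enzyme, was at 2599 and 3333 CPM in Col-0 at 23°C, 2072 and 2806 CPM in Col-0 at 27°C, 2451 and 2220 CPM in *pwr-2* at 23°C and 2357 and 1766 CPM in *pwr-2* at 27°C. The genotypes overlapped: the means were 2966 ± 519 (SD, n = 2), 2439 ± 519, 2335 ± 163 and 2062 ± 418 CPM in that order. None of its differences passed the threshold, and on the log2 scale the 4 were -0.35 (standard error 0.648) and -0.25 (0.364) between genotypes at 23°C and 27°C, and -0.30 (0.488) and -0.20 (0.115) for temperature, Col-0 first. Per length its level was 1.54 to 3.59 times that of *TGG1* in every library.

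**Figure D2:**
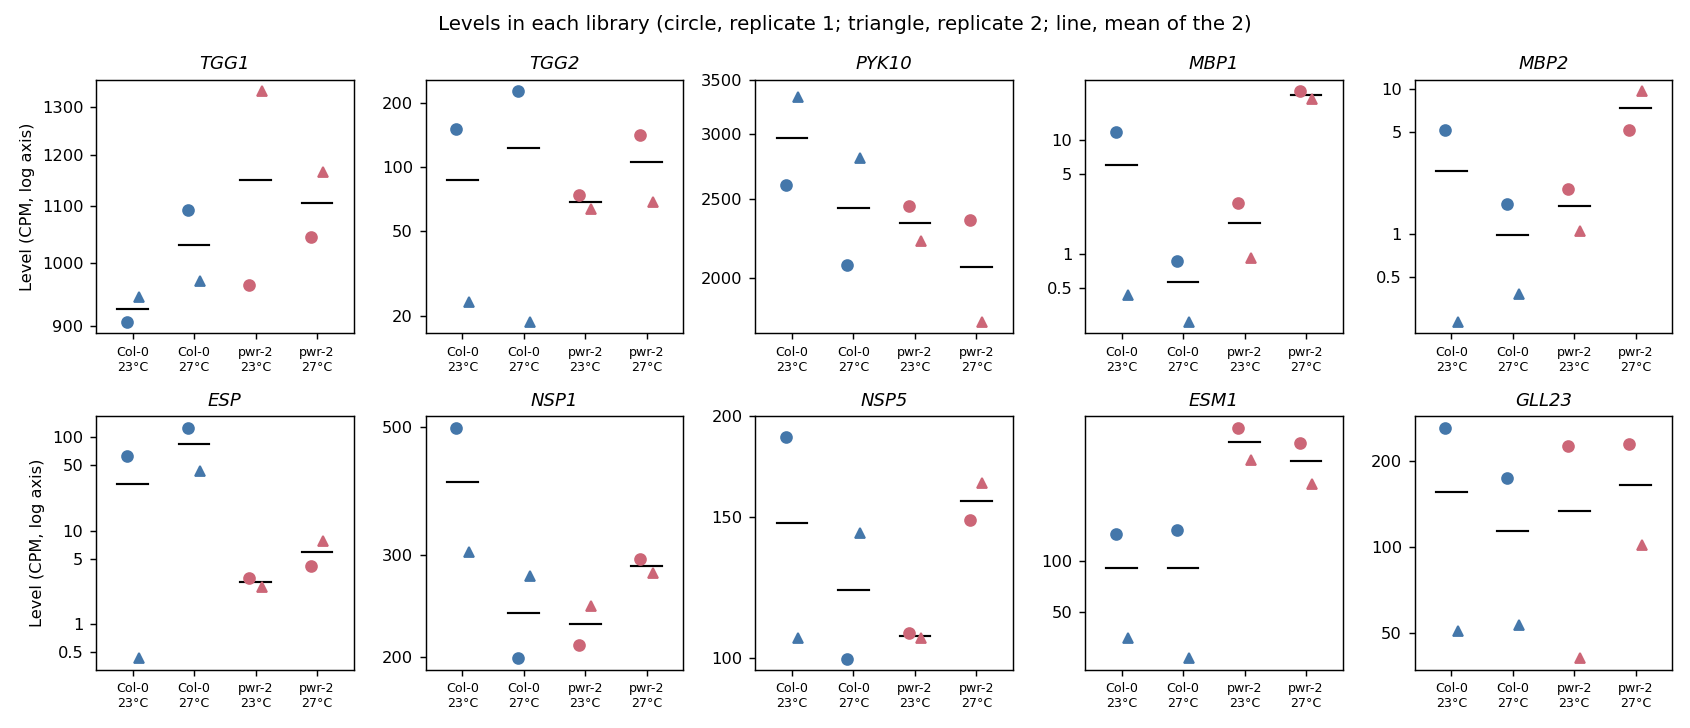
Level of each of the 10 genes in each of the 8 libraries (vertical axes in CPM, logarithmic, with a scale of its own for each gene), by genotype and temperature. Circles are replicate 1, triangles replicate 2 and lines the mean of the 2; *MBP1* stands highest in both libraries of *pwr-2* at 27°C (26.8 and 22.9 CPM), and all 4 *pwr-2* libraries of *ESM1* lie above all 4 of Col-0.

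The change that passed the threshold belonged to the lectin *MBP1*. It was counted 88 and 7 times in the 2 replicates of Col-0 kept at 23°C, 12 and 4 times after its shift to 27°C, 26 and 14 times in unshifted *pwr-2*, and 324 and 253 times in shifted *pwr-2*. These are 11.7 and 0.434 CPM, 0.869 and 0.254 CPM, 2.80 and 0.914 CPM, and 26.8 and 22.9 CPM. Both libraries of *pwr-2* at 27°C were thus above the other 6, and of those 6 only replicate 1 of Col-0 at 23°C exceeded 10 CPM. At 27°C *MBP1* was 46.2-fold higher in *pwr-2* than in Col-0, a log2 difference of 5.53 (standard error 0.470, adjusted p = 0.0312, edgeR quasi-likelihood test with Benjamini-Hochberg adjustment), higher in 2 of 2 replicate pairs (4.71 and 5.80). It was the 1 of the 10 members called in that comparison, against 1.05% of the 19324 genes tested, of which 0.828% were higher. The Col-0 side held only 12 and 4 counts, near the floor, so the size of the fold is imprecise. The gene passed the filter on low counts mainly through the *pwr-2* libraries, where it was high.

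Within *pwr-2*, *MBP1* rose 14.6-fold from 23°C to 27°C, a log2 difference of 3.87 (standard error 0.356, adjusted p = 0.0434, edgeR), in 2 of 2 pairs (3.19 and 4.43). Again it was the only member called, against 0.42% of the 19050 genes tested, of which 0.367% were higher. Both comparisons share the libraries of *pwr-2* at 27°C and are not separate evidence. In Col-0 the log2 difference from 23°C to 27°C was -2.80 (standard error 0.847), with pairs of -3.53 and -0.52, and did not pass (adjusted p = 0.943). The difference between these responses, the interaction, was 7.10 (standard error 1.46, unadjusted p = 0.00289, adjusted p = 0.948) and no gene of 19936 passed in that test by edgeR, while 915 had an unadjusted p under 0.05 and DESeq2 called 25, *MBP1* among them. At 23°C the genotypes overlapped for *MBP1*, with pairs of opposite sign (lower in *pwr-2* in replicate 1, and higher by 0.86 on the log2 scale in replicate 2).

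The call on *MBP1* depended on the model. At 27°C between genotypes it was lost without the replicate block (adjusted p = 0.153), with all 8 libraries in 1 fit (0.354) and with upper-quartile normalization (0.0625), and was kept with DESeq2 size factors, with no filter and with nuclear genes alone (0.00219 to 0.0280). It was not tested where at least 10 counts were required in every library, and DESeq2 also called it. Between temperatures in *pwr-2* it was lost with upper-quartile normalization (adjusted p = 0.0540), with a block within genotype (0.298), without the block (0.433) and with all 8 libraries (0.918). With each library left out of the fit of all 8, the log2 difference between genotypes at 27°C ran from 4.56 without replicate 2 of *pwr-2* at that temperature to 7.13 without replicate 1. For 27°C against 23°C in *pwr-2* the same omissions gave 2.66 and 5.23. The interaction ran from 4.14 without replicate 1 of unshifted Col-0, the library with 88 counts, to 8.04 without replicate 1 of shifted *pwr-2*.

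*MBP2*, the neighbour of *MBP1*, had few reads: 39 and 4 counts for Col-0 at 23°C, 22 and 6 counts after the shift, 19 and 16 counts for *pwr-2* at 23°C and 63 and 106 counts after the shift. That is 5.19 and 0.248 CPM, 1.59 and 0.381 CPM, 2.05 and 1.04 CPM, and 5.21 and 9.60 CPM. The highest pair of libraries was the same as for *MBP1*, with replicate 1 of Col-0 at 23°C just below. The log2 difference between genotypes at 27°C was 2.98 (standard error 0.752, adjusted p = 0.118, edgeR) and that between temperatures in *pwr-2* 2.29 (standard error 0.491, adjusted p = 0.106), so neither passed. DESeq2 with the same block called both. Over the 8 libraries the log2 levels of *MBP1* and *MBP2* had a Pearson r of 0.948, points that share library, replicate and genotype differences.

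*ESM1* was the member that separated the genotypes across both temperatures. Its level was 147 and 34.8 CPM in Col-0 at 23°C, 155 and 26.3 CPM in Col-0 at 27°C, 632 and 407 CPM in *pwr-2* at 23°C and 514 and 291 CPM in *pwr-2* at 27°C. All 4 *pwr-2* libraries lay above all 4 Col-0 libraries. It was the only member whose genotypes did not overlap, and 6.54% of the 19936 genes tested did not overlap in 1 direction or the other. For no member did the 4 libraries at 27°C lie apart from the 4 at 23°C, which 1.35% of genes did. Within every group replicate 1 was above replicate 2, and the difference between genotypes was larger in replicate 2, at 3.54 on the log2 scale at 23°C and, against 1.73 in replicate 1, 3.46 at 27°C.

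By edgeR the difference of *ESM1* was 2.82 (standard error 0.572, unadjusted p = 0.00765, adjusted p = 0.976) at 23°C, 2.58 (standard error 0.491, adjusted p = 0.0707) at 27°C and 2.70 (standard error 0.399, unadjusted p = 0.000529, adjusted p = 0.173) averaged over both temperatures, a 6.51-fold higher level, higher in 4 of 4 pairs. None passed the threshold, which no gene did by edgeR at 23°C or in the averaged comparison, where 868 and 3474 genes had an unadjusted p under 0.05. DESeq2 called *ESM1* in all 3, where it called 51, 931 and 925 genes. With no filter on low counts, or with at least 10 counts required in every library, edgeR also called it at 27°C (adjusted p = 0.0232 and 0.0458). The log2 difference of 27°C from 23°C was -0.17 (standard error 0.252) for Col-0 and -0.39 (0.152) for *pwr-2*, and neither passed (adjusted p = 0.956 and 0.269).

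*ESP*, which diverts glucosinolate breakdown to nitriles and epithionitriles, had its higher levels in Col-0. It was counted 466 and 7 times in Col-0 at 23°C and 1716 and 675 times in Col-0 at 27°C, against 29 and 38 times in *pwr-2* at 23°C and 50 and 85 times in *pwr-2* at 27°C. Its levels were 62.0 and 0.434 CPM, 124 and 42.9 CPM, 3.12 and 2.48 CPM, and 4.13 and 7.70 CPM. At 27°C both Col-0 libraries were above both *pwr-2* libraries, but at 23°C replicate 2 of Col-0 was the lowest of all 8. At 27°C the log2 difference of *pwr-2* from Col-0 was -3.68 (standard error 0.613, adjusted p = 0.0568, edgeR), with pairs of -4.86 and -2.45, and did not pass. It passed with DESeq2 size factors in edgeR (adjusted p = 0.0488), with no filter (0.0130), under the filter of 10 counts per library (0.0338) and by DESeq2. At 23°C the pairs went opposite ways (-4.24 and 2.16).

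Set against each other, the per-length level of *ESM1* was 0.583 to 76.1 times that of *ESP* in the 4 Col-0 libraries and 36.0 to 192 times in the 4 *pwr-2* libraries. The ranges overlapped only through replicate 2 of Col-0 at 23°C, the library with 7 *ESP* counts, and the next highest Col-0 value was 2.25. The ratio restates the differences of *ESM1* and *ESP* given above and is not separate evidence. It rests on 29 to 85 *ESP* counts in the *pwr-2* libraries and was not tested.

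The nitrile specifier genes spanned narrow ranges and passed in no comparison. *NSP1* was at 498 and 304 CPM in Col-0 at 23°C, 199 and 276 CPM in Col-0 at 27°C, 210 and 245 CPM in *pwr-2* at 23°C and 295 and 279 CPM in *pwr-2* at 27°C. It was lower at 27°C in both Col-0 pairs and higher at 27°C in both *pwr-2* pairs, but the interaction of 1.09 (standard error 0.478, adjusted p = 0.948, edgeR) did not pass. Such opposite temperature differences, in both pairs of each genotype, were seen in *MBP1* and *NSP1* and in 15.6% of all genes. Replicate 2 of Col-0 held only 7 and 4 counts of *MBP1*, so its sign there is not firm. Opposite genotype differences at the 2 temperatures were seen in *NSP1*, *NSP5* and *GLL23* and in 7.08% of all genes, but 1 pair was near 0 in *NSP1* (0.012 on the log2 scale, replicate 2 at 27°C) and in *NSP5* (-0.0034, replicate 2 at 23°C). *NSP5*, its relative with 66.2% identity, was at 189 and 106 CPM, 99.7 and 143 CPM, 107 and 106 CPM, and 148 and 165 CPM in the same order. In *pwr-2* both libraries at 27°C exceeded both at 23°C, with a log2 difference of 0.55 (standard error 0.165, unadjusted p = 0.0190, adjusted p = 0.181). Over the 8 libraries *NSP1* and *NSP5* had a Pearson r of 0.780.

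*GLL23*, a member of the PYK10 complex and 74.0% identical to *ESM1* in the aligned part of the merged exons, followed the replicates. It was at 261 and 50.5 CPM in Col-0 at 23°C, 174 and 53.2 CPM in Col-0 at 27°C, 226 and 40.7 CPM in *pwr-2* at 23°C and 229 and 101 CPM in *pwr-2* at 27°C. Replicate 1 was the higher in all 4 groups, as for *TGG2* and *ESM1*. At 27°C the log2 difference between genotypes was 0.65 (standard error 0.300, adjusted p = 0.354, edgeR), with pairs of 0.39 and 0.93, and did not pass.

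**Figure D3:**
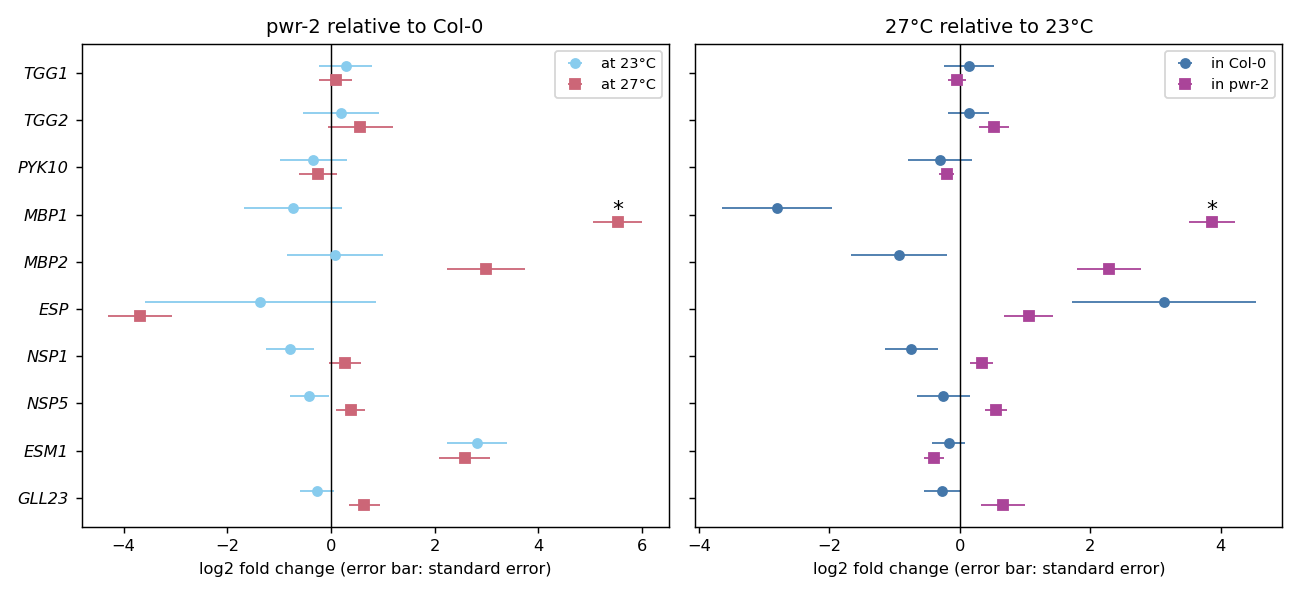
Log2 difference of each of the 10 genes in the 4 comparisons of groups, with bars of 1 standard error from the edgeR fit and an asterisk for an adjusted p under 0.05; circles and squares stand for the groups in each panel's legend. Only *MBP1* carries an asterisk, at 5.53 between genotypes at 27°C and at 3.87 between temperatures in *pwr-2*, and *ESM1* lies at 2.82 and 2.58 in both genotype comparisons.

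Over the 10 members the median log2 difference of *pwr-2* from Col-0 was -0.31 at 23°C and 0.47 at 27°C, beside -0.02 and -0.01 over all genes tested. For the shift from 23°C to 27°C the median was -0.26 with Col-0 and 0.54 with *pwr-2*, beside 0.00 and 0.01 over all genes. At an unadjusted p under 0.05, 4 members differed between genotypes at 27°C (3 higher, 1 lower) where 16.8% of all genes did, and 5 between temperatures in *pwr-2* (4 higher, 1 lower) where 18.1% did. In Col-0 1 member, *MBP1*, had an unadjusted p under 0.05 between temperatures, where 3.9% of all genes did. Between genotypes at 23°C it was *ESM1* alone (4.53% of all genes), for the interaction *MBP1* alone (4.59%), for the averaged genotype effect *ESM1*, *MBP1* and *ESP* (17.4%) and for the averaged temperature effect none (3.8%).

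DESeq2 with the same block called more genes and more members. Between genotypes it called *ESM1* at 23°C, where it called 0.266% of all genes, and *MBP1*, *MBP2*, *ESP* and *ESM1* at 27°C, where it called 4.82%. Between temperatures it called *MBP1* and *MBP2* in *pwr-2* (3.39% of all genes) and 0 members in Col-0 (0.191%). It called *MBP1* for the interaction (0.125%), *MBP1* and *ESM1* for the averaged genotype effect (4.64%) and 0 members for the averaged temperature effect (0.13%).

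Markers of single tissues were read in the same libraries. The summed level of 6 guard cell markers, the cells in which *TGG1* is known to be expressed, was 59.0 and 39.7 CPM in *pwr-2* at 27°C and 70.3 to 121 CPM in the other 6 libraries, with all 6 markers over 3 counts in every library. Looked at after the sums were seen, that gap came from 1 of them, *GC1*, at 12.7 and 2.81 CPM in *pwr-2* at 27°C and 17.3 to 87.8 CPM elsewhere. The other 5 summed to 46.3 and 36.9 CPM in *pwr-2* at 27°C, within the 33.3 to 63.7 CPM of the other libraries. The summed level of 7 root markers was 60.6 and 43.9 CPM in *pwr-2* at 27°C and 60.3 to 128 CPM in the rest, with 6 or 7 of the 7 over 3 counts. The overlap came only from replicate 1 of Col-0 at 23°C, at 60.3 CPM, but replicate 2 of *pwr-2* at 23°C was close, at 63.2 CPM. Low root sums were thus not confined to *pwr-2* at 27°C. Looked at after the sums were seen, *SCR* was at 35.4 and 27.4 CPM in *pwr-2* at 27°C and 35.9 and 24.8 CPM in *pwr-2* at 23°C. *CASP1* was at 12.6 and 9.60 CPM against 26.6 and 23.1 CPM in the same groups. The summed level of 6 green leaf markers was 21792 to 46090 CPM, all 6 over 3 counts, with replicate 1 above replicate 2 in 3 of the 4 groups. *GC1* was thus lowest in the libraries in which *MBP1* was highest, and its part in the result was not tested. In whole seedlings, fewer cells of a type and less RNA per cell cannot be told apart.

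A wider list of 36 genes of the same system, none of them members, held other myrosinases, ER body β-glucosidases and formation genes, jacalin lectins, GDSL lipase-like genes, nitrile specifiers and nitrilases. Of these, 31 to 33 were tested in each comparison and 0 passed the threshold in any of the 7 by edgeR. DESeq2 with the same block called 5 between genotypes at 27°C (3 higher, 2 lower), 5 between temperatures in *pwr-2* (all higher), 3 for the averaged genotype effect (1 higher, 2 lower), 1 for the interaction (higher) and 0 in the other 3 comparisons. Where it called any of the list, its share of all genes tested was 4.82%, 3.39%, 4.64% and 0.125%, in that order. At an unadjusted p under 0.05, 5 were higher and 5 lower between genotypes at 27°C by edgeR, where 16.8% of all genes passed that mark, and 9 were higher and 3 lower between temperatures in *pwr-2*, where 18.1% did. The 5 most highly expressed per kilobase were *NIT1* (548 CPM per kilobase), a nitrilase, the jacalin lectins *JAL30* (432), *JAL34* (144) and *JAL22* (123), and *NAI2* (116), which forms ER bodies. *TGG3* and *TGG6*, which the list holds under other myrosinases and which were also named after their values were seen, had 0 counts in all 8 libraries.

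The 3 genes of that list nearest to the threshold between temperatures in *pwr-2* were named after their values were seen, so that their high levels in *pwr-2* at 27°C, as in *MBP1*, follow from the choice. *JAL5*, a jacalin lectin, was at 94.2 and 7.44 CPM in Col-0 at 23°C, 41.6 and 10.9 CPM in Col-0 at 27°C, 33.3 and 9.20 CPM in *pwr-2* at 23°C and 176 and 142 CPM in *pwr-2* at 27°C. *BGLU18*, an ER body β-glucosidase, was at 131 and 22.2 CPM, 76.2 and 17.8 CPM, 77.6 and 55.3 CPM, and 278 and 345 CPM in the same order. *TSA1*, a relative of *NAI2* that takes part in forming ER bodies, was at 23.7 and 6.69 CPM, 15.9 and 4.96 CPM, 10.3 and 10.6 CPM, and 26.7 and 41.3 CPM. In each, both libraries of *pwr-2* at 27°C were above the other 6. Their log2 differences between temperatures in *pwr-2* were 3.15 for *JAL5*, 2.24 for *BGLU18* and 1.67 for *TSA1*, with adjusted p of 0.0536, 0.0521 and 0.0521 by edgeR, outside the threshold, and of 0.00108, 2.8e-16 and 6.9e-05 by DESeq2, which called all 3. *JAL33*, another lectin named after its values were seen, stood the other way: it was at 148 to 269 CPM in the 4 Col-0 libraries and 56.1 to 78.6 CPM in the 4 *pwr-2* libraries, a log2 difference of -1.59 averaged over temperature (standard error 0.189, adjusted p = 0.173, edgeR). DESeq2 called it (adjusted p = 2.6e-10). Of the 31 genes of the list tested between temperatures in *pwr-2*, 19 were above 0 and 12 below. The other ER body formation genes were at 0.30 (*NAI1*), 0.13 (*NAI2*), 0.14 (*MEB1*) and -0.18 (*MEB2*) there (edgeR, adjusted p 0.436 to 0.787). The lectins *JAL6*, *JAL7* and *JAL8* were at -0.84, -1.03 and -0.25 (edgeR, adjusted p 0.169 to 0.569). All but *NAI2* of these were named after their values were seen.

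**Figure D4:**
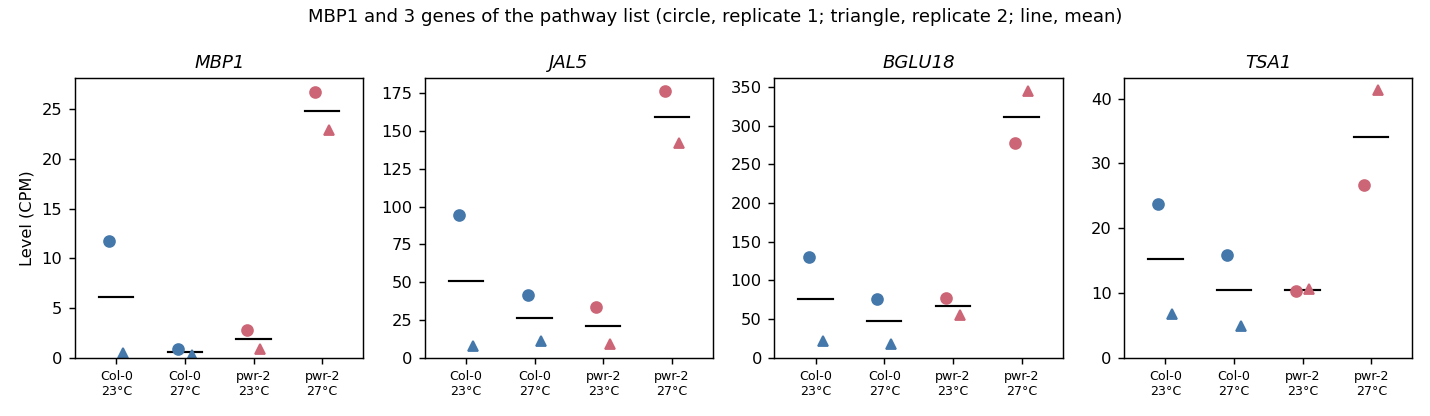
Level of *MBP1* and of *JAL5*, *BGLU18* and *TSA1* in each library (vertical axes in CPM, linear), by genotype and temperature, with circles for replicate 1, triangles for replicate 2 and lines at the mean. In all 4 genes both libraries of *pwr-2* at 27°C are the highest, and replicate 1 of Col-0 at 23°C is the highest of the other 6.

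Among 18718 genes with a mean of at least 1 CPM, those whose log2 level followed a member most closely over the 8 libraries were listed, 3 for each of 5 members. For *MBP1* these were *MYB108*, a MYB transcription factor gene (Pearson r 0.984), *BRU6* (0.981) and *CSLA10*, of the cellulose synthase-like family (0.979). For *ESM1* they were AT3G56080 (0.994), AT4G15450 (0.989) and AT4G12650 (0.987). For *TGG1* they were *KAB1*, a potassium channel subunit gene (0.984), *POK* (0.938) and *PMM* (0.934), and for *TGG2* *MBD4* (0.989), *LTP6*, a lipid transfer protein gene (0.988), and AT4G14200 (0.985). For *PYK10* they were *AAE3* (0.982), *P5CS2*, of proline synthesis (0.941), and *ABS2* (0.937). These are the highest of many correlations over 8 libraries that share replicate differences, and they are given as a description.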

How the data were processed

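RNA-seq libraries of Col-0 and *pwr-2* seedlings at 23°C or after 2 h at 27°C, 2 biological replicates each, were mapped to groups by their labels. Per the submitters' processing notes and the study's methods, ribosomal reads were removed with SortMeRNA, reads of 90 bases were aligned to TAIR10 with TopHat2 2.1.0 and Bowtie2 2.1.0, and fragments were counted per gene with featureCounts 1.4.5. The authors deposited raw counts per gene, with gene lengths, in a table for each temperature. A table of normalized values, made with DESeq2 1.14.1, was not used. The annotation release, the strand setting and the treatment of reads with several matches are not given in the sources used here.

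Counts were tested with edgeR 4.0.16 in R 4.3.3 (TMM, filterByExpr, quasi-likelihood F test, Benjamini-Hochberg over all genes tested, threshold 0.05) in 7 comparisons: genotype at each temperature and temperature in each genotype on 4 libraries each, and the interaction and both averaged effects on all 8. The replicate number was a block, as the study's methods model a batch difference between replicates. As a check, replicate differences over 19844 nuclear genes had a Pearson r of 0.655 between the Col-0 groups, 0.610 between the *pwr-2* groups and 0.260 to 0.333 between genotypes. The standard error was the size of the log2 difference divided by the square root of F. CPM were computed on TMM library sizes, with a prior count of 2 for log2 levels. DESeq2 1.42.0, other normalizations and filters, fits without the block and each library left out were alternatives. Depth was 7379650 to 15733741 counts per library.

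The genes named are *PWR*, the 10 members, members of the wider list past the threshold or among its 5 highest per kilobase, and the 3 genes most like each of 5 members; other genes are marked as named after their values were seen. Members and lists were chosen with earlier results of these data known. Of 33602 identifiers, 32835 matched TAIR10.1. Promoter sequences are 250 bases from the RefSeq TAIR10.1 genome and were searched with Biopython 1.88 and Python 3.11.15; matplotlib 3.10.9 drew the figures.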

Additional observations from a re-analysis of the deposited data

Results flagged for a closer look

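Some members had differences of opposite sign in both replicate pairs of 2 groups. *MBP1* was lower at 27°C than at 23°C in both Col-0 pairs and higher in both *pwr-2* pairs, an interaction of 7.10 on the log2 scale. *NSP1* did the same, with 1.09. The Col-0 pairs of *MBP1* were unequal, at -3.53 and -0.52, and the second rests on 7 and 4 counts. With single libraries left out, the Col-0 difference of *MBP1* ran from -4.03 to -0.23, so a fall in Col-0 is not firm. Temperature differences of this kind were found in 15.6% of 19936 genes. The genotype difference changed sign between temperatures for *NSP1* (interaction 1.09), *NSP5* (0.83) and *GLL23* (0.96), each lower in *pwr-2* in both pairs at 23°C and higher in both at 27°C. For *NSP1* and *NSP5* 1 of those pairs was near 0 (0.012 for *NSP1* in replicate 2 at 27°C, -0.0034 for *NSP5* in replicate 2 at 23°C), so its sign is not firm. Genotype differences of opposite sign were found in 7.08% of genes. The interaction was tested with edgeR for each, and none passed (adjusted p = 0.948 for all 4 genes).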

How the results depend on the processing

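The number of members called changed with the model. With all other choices kept, the replicate block, which the study's methods imply, decided it at 27°C between genotypes: 1 member with the block and 0 with no replicate block, as with upper-quartile normalization and with all 8 libraries in 1 fit. It was 2 with DESeq2 size factors, 3 with no filter, 2 with the filter of 10 counts per library and 4 with DESeq2. Between temperatures in *pwr-2* it was 1, and 0 with upper-quartile normalization, with no replicate block, with a block within genotype and with all 8 libraries, and 2 with no filter and with DESeq2. DESeq2 called 1 member at 23°C between genotypes, 1 for the interaction and 2 for the averaged genotype effect, where edgeR called 0. Over all genes the calls between genotypes at 27°C were 202 with the block and 0 without it or with upper-quartile normalization or all 8 libraries, 700 with no filter, 380 with the filter of 10 counts per library and 931 with DESeq2. Between temperatures in *pwr-2* they were 80, and 0 without the block, with a block within genotype or with all 8 libraries, 36 with upper-quartile normalization, 586 with nuclear genes alone, 685 with no filter, 416 with the filter of 10 counts per library and 645 with DESeq2. For the averaged genotype effect they were 0, against 2 with upper-quartile normalization, no filter, at least 10 counts or nuclear genes alone and 925 with DESeq2. DESeq2 called 51, 37, 25 and 26 genes in the other 4, where edgeR called 0.

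Signs of some uncalled members changed. Without the block the log2 difference of *TGG2* was -0.35 between genotypes at 23°C, -0.25 at 27°C and -0.29 averaged, that of *MBP2* at 23°C -0.79 (-0.34 with all 8 libraries) and that of *GLL23* between temperatures averaged -0.080, all opposite to the blocked values. The *TGG2* interaction was -0.0039 with upper-quartile normalization. The cause was not tested.

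Each library was left out in turn from the fit of all 8 with the block, which itself called 0 members, so calls lost there say nothing about a library. Members called ranged from 0 to 1 for the interaction and were 0 in the other 6 comparisons. The exception was replicate 2 of Col-0 kept at 23°C, without which the interaction called 1 member and 223 genes. The signs of uncalled members turned with single libraries. The log2 range was, between genotypes at 23°C, -4.26 to 2.47 for *ESP*, -0.66 to 0.099 for *GLL23*, -2.36 to 1.47 for *MBP1*, -1.58 to 2.31 for *MBP2*, -0.93 to 0.15 for *NSP5* and -0.91 to 1.32 for *TGG2*. It was, between genotypes at 27°C, -0.042 to 0.63 for *NSP1*, -0.56 to 0.070 for *PYK10*, -0.097 to 0.30 for *TGG1* and -0.55 to 1.75 for *TGG2*. It was, between temperatures in Col-0, -0.93 to 0.46 for *ESM1*, -0.55 to 0.031 for *GLL23*, -2.26 to 1.59 for *MBP2*, -0.77 to 0.28 for *NSP5*, -0.053 to 0.34 for *TGG1* and -1.17 to 1.12 for *TGG2*. It was, between temperatures in *pwr-2*, -0.98 to 0.29 for *ESM1*, -0.89 to 2.50 for *ESP*, -0.52 to 0.11 for *PYK10*, -0.26 to 0.18 for *TGG1* and -0.43 to 1.80 for *TGG2*. It was, for the interaction, -0.86 to 0.53 for *ESM1*, -6.13 to 0.59 for *ESP*, -0.23 to 0.40 for *PYK10*, -0.41 to 0.034 for *TGG1* and -0.69 to 1.60 for *TGG2*. It was, for the averaged genotype effect, -0.062 to 0.45 for *GLL23*, -0.48 to 0.0049 for *NSP1*, -0.28 to 0.27 for *NSP5* and -0.20 to 0.98 for *TGG2*. It was, for the averaged temperature effect, -0.67 to 0.081 for *ESM1*, -0.048 to 0.46 for *GLL23*, -0.076 to 1.84 for *MBP1*, -0.21 to 1.99 for *MBP2*, -0.42 to 0.026 for *NSP1*, -0.11 to 0.41 for *NSP5*, -0.056 to 0.17 for *TGG1* and -0.37 to 1.02 for *TGG2*.

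Low counts limit *MBP1*, *MBP2* and *ESP*, whose lowest libraries held 4, 4 and 7 counts.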
